A study of Mus musculus with 6 samples.

Results

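Platelet-lineage priming is the presence, in blood stem cells that are still multipotent, of transcripts that megakaryocytes and platelets use later. The genes described here are the 9 symbols *Vwf*, *Pf4*, *Itga2b*, *Itgb3*, *Gp1bb*, *Gp9*, *Gp5*, *Selp* and *Clu*, chosen by name out of 26216 gene names in the expression files, and all 9 were found and passed the filter on low values. Platelets arise from megakaryocytes, which take up or make von Willebrand factor, platelet factor 4 and P-selectin for their alpha granules and carry integrin and glycoprotein receptors that bind fibrinogen and von Willebrand factor. Some hematopoietic stem cells (HSCs) already express von Willebrand factor, and such cells are known for an output that leans towards platelets.

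RNA was sequenced from long-term and short-term HSCs (LT/ST-HSCs) of mixed bone marrow chimeras at week 6 after transplantation, in 3 samples of *Ltbr*-/- cells (CD45.2; labelled *Ltbr* KO) and 3 of Ly5.1 wild-type cells (CD45.1). LSKs (lineage-negative cells with Sca1 and c-kit) of both donors had been given to the same lethally irradiated Ly5.1/Ly5.2 recipients, and LT/ST-HSCs were sorted as Annexin-V-negative LSKs with CD150 and without CD48. *Ltbr* encodes the lymphotoxin beta receptor, which is deleted in all cells of the knockout donor, and each sample pools cells of several chimeras. Donors of *Ltbr*-/- cells were 13, 10 and 10 to 13 weeks old in replicates 1 to 3, and those of the Ly5.1 cells 7 to 13 weeks in each replicate. The CD45 form follows the genotype in every sample, so these cannot be told apart, and donor ages differed in part. In bulk RNA, fewer cells that express a gene and less RNA per cell also cannot be told apart.

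The values are the normalised signal that the study derived per gene, 2 to the power of a regularized log, and all fold changes are differences of their log2. *Ltbr* (chr6:125306571-125313885 in GRCm38) had signals of 24.2, 26.4 and 23.1 in the *Ltbr*-/- samples and of 564, 549 and 522 in the Ly5.1 samples, in keeping with the labels. Among the transcripts of the gate, *Cd48* lay between 20.1 and 28.9 over the 6 samples. The gate was also lineage-negative. Of 14 granulocyte and monocyte markers, 2 had a mean signal under 20, but *S100a9* lay between 9949 and 14909. *Kit* lay between 5179 and 5551 in *Ltbr*-/- and between 5849 and 6103 in Ly5.1 samples. *Slamf1* (CD150) lay between 259.8 and 266 against 271 and 329, and *Ly6a* (Sca1) between 541 and 582 against 726 and 767. The signals of *Kit*, *Slamf1* and *Ly6a* were thus lower in *Ltbr*-/- samples, without overlap, as were those of 13.5% of all tested genes. In the test used below *Ly6a* passed (limma, adjusted p = 0.0016), while *Kit* (adjusted p = 0.1545) and *Slamf1* (adjusted p = 0.220) did not. After quantile normalization *Kit* passed too (limma, adjusted p = 0.000301). Summed over all names, the signal was between 12974100 and 13281100 in *Ltbr*-/- and between 11689100 and 11983000 in Ly5.1 samples, while the median log2 signal of tested genes was 8.46 or 8.47 in each library. Values after quantile normalization, which removes such differences in distribution, are therefore given beside the results they change. The files hold no read counts, so the number of reads behind each value is unknown.

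Of the 9 priming genes, *Clu* and *Itga2b* rose and *Pf4* fell in *Ltbr*-/- LT/ST-HSCs, with an adjusted p under 0.05 (limma, Benjamini-Hochberg over 13108 tested genes). After quantile normalization 1 of the 9 rose (*Clu*) and 2 fell (*Pf4* and *Vwf*). The share of all tested genes past the adjusted p in that fit is not given here, so these counts have no background beside them. Over all tested genes the first fit took 14.8%, 10.6% higher and 4.18% lower. With a fold of at least 1.5 as well, the rule of the study, 2.78% of the tested genes were called, 2.72% higher and 0.0610% lower, and of the 9 priming genes 1 was called, *Clu*. The groups did not overlap for 5 of the 9 genes, 3 higher (*Clu*, *Itga2b*, *Selp*) and 2 lower (*Vwf*, *Pf4*), against 30.4% of all tested genes, 17.0% higher and 13.5% lower. For each of these 5 an exact two-sided permutation test gave p = 0.1, the smallest that 3 against 3 samples allow. The median log2 fold change of the 9 genes was −0.03, and that of all tested genes −0.01. All directions are relative to the bulk of genes. When samples were centred on ribosomal protein genes, whose own signal was higher in *Ltbr*-/- cells, the median of all tested genes moved to −0.89, and *Itga2b* (−0.57), *Selp* (−0.65) and *Clu* (−0.02) changed sign.

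**Figure D1:**
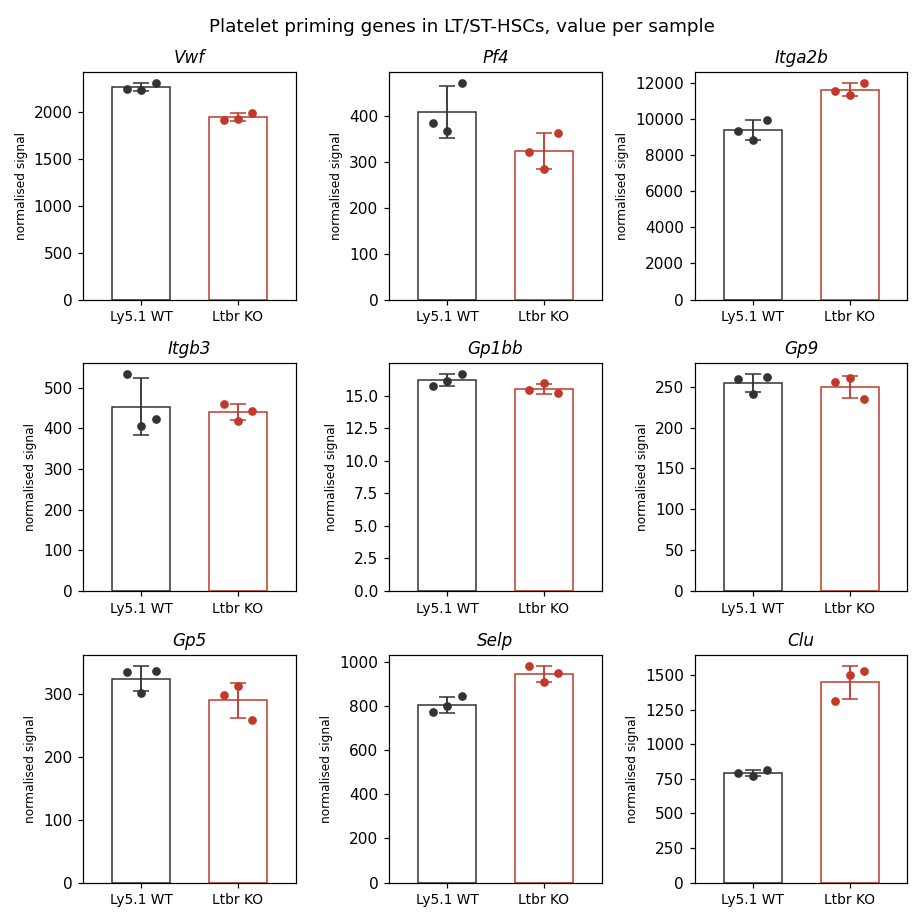
Normalised signal (linear axis from 0) of the 9 platelet priming genes, with a point per sample, bars at the mean and error bars of 1 SD (n = 3), Ly5.1 in black and *Ltbr*-/- in red. *Clu* lies between 1311 and 1531 in *Ltbr*-/- and between 773 and 813 in Ly5.1 samples, while the points of *Itgb3*, *Gp1bb*, *Gp9* and *Gp5* overlap.

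Per kilobase of the longest protein-coding transcript, *Itga2b* had by far the highest level of the 9 genes, with a mean signal per kb of 3387 in *Ltbr*-/- and of 2729 in Ly5.1 cells. In Ly5.1 cells the order then ran over *Pf4* at 696, *Clu* at 438, *Gp9* at 288, *Vwf* at 257, *Selp* at 234, *Gp5* at 148 and *Itgb3* at 78.4 to *Gp1bb* at 7.76, and no neighbours in this order overlapped between samples. In *Ltbr*-/- cells, *Clu* at 800 stood above *Pf4* at 551, and *Selp* at 275 stood above *Vwf* at 220. There *Gp9*, at 284, and *Selp* overlapped, while the other neighbours did not. The place of a gene in the order was the same in both genotypes for *Itga2b*, *Gp9*, *Gp5*, *Itgb3* and *Gp1bb*.

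**Figure D2:**
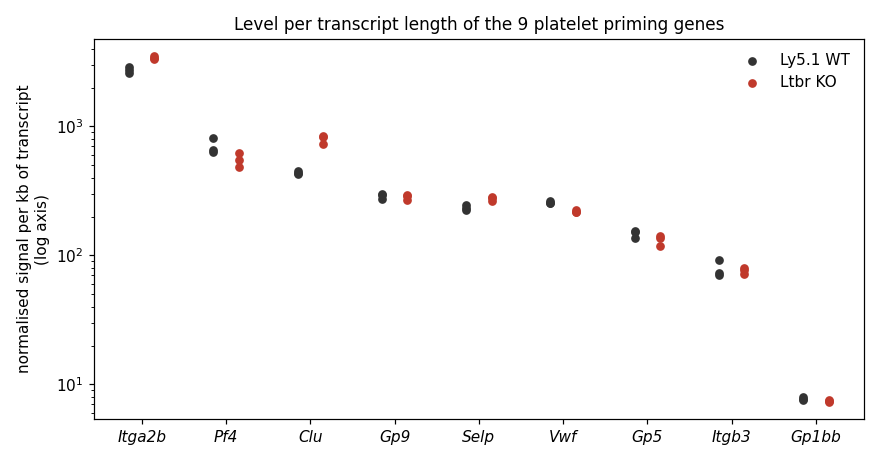
Normalised signal per kb of transcript (log axis) for the 9 platelet priming genes, with a point per sample, Ly5.1 in black and *Ltbr*-/- in red. The levels run from 3387 for *Itga2b* to 7.44 for *Gp1bb* in *Ltbr*-/- cells, and *Clu* and *Pf4* exchange their places between the genotypes.

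*Itga2b* and *Itgb3* encode the integrin chains αIIb and β3, which pair to form the fibrinogen receptor of platelets. *Itga2b* (chr11:102453297-102469883) had signals of 11547, 11349 and 12025 in the *Ltbr*-/- samples and of 9321, 8856 and 9964 in the Ly5.1 samples. The groups did not overlap. Signals averaged 11640 ± 347 (SD, n = 3) in the knockout and 9380 ± 556 (SD, n = 3) in Ly5.1 cells, a fold of 1.24 with a log2 fold change of 0.31 ± 0.06 (SE, limma, adjusted p = 0.000461). This rise depended on the scaling: after quantile normalization, which gives every sample the same distribution of signals, the log2 fold change of *Itga2b* was 0.01 (limma, adjusted p = 0.904).

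*Itgb3* (chr11:104608000-104670476) had signals of 459, 418 and 443 in *Ltbr*-/- and of 533, 405 and 422 in Ly5.1 samples, with overlapping groups. Its fold was 0.977, and the 95% interval (from limma, not adjusted, as throughout) ran from 0.849 to 1.13 (limma, adjusted p = 0.877). Within each sample the signal of *Itga2b* divided by that of *Itgb3*, which no single scaling factor per sample alters, was 25.2, 27.1 and 27.1 in *Ltbr*-/- and 17.5, 21.8 and 23.6 in Ly5.1 cells. The ratios of the genotypes did not overlap (exact two-sided permutation test, p = 0.1, as for all 6 ratios computed, and 0.1 after adjustment over them). For *Selp* over *Vwf*, *Clu* over *Vwf* and *Pf4* over *Itga2b* this was fixed in advance. The genes of each of those ratios already separated in opposite directions. Quantile normalization is not a single factor per sample, and after it *Itga2b* and *Itgb3* lay close together, at 0.01 and −0.04 on the log2 scale.

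*Pf4* encodes platelet factor 4, a chemokine of the alpha granules that is widely used as a marker of megakaryocytes. *Pf4* (chr5:90772435-90773383) had signals of 322, 286 and 364 in the *Ltbr*-/- samples and of 385, 369 and 473 in the Ly5.1 samples. The groups did not overlap, but the highest *Ltbr*-/- and the lowest Ly5.1 value lay close together. Signals averaged 324 ± 39.0 (SD, n = 3) against 409 ± 56.3 (SD, n = 3), a log2 fold change of −0.33 ± 0.10 (SE, limma, adjusted p = 0.0240). Its place under the threshold rested on single samples. The adjusted p of *Pf4* from limma was 0.0587 without *Ltbr*-/- replicate 1, 0.169 without *Ltbr*-/- replicate 2 and 0.168 without Ly5.1 replicate 3. It was also lost in limma without a trend of the variance (adjusted p = 0.0661).

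Of the 9 genes, 6 had an entry in the RefSeq promoter table used here. The 250 bases before the start site are shown in lower case for *Itga2b* and *Pf4*, the members past the test in opposite directions, and for *Gp5*, whose region holds GATA letters. Capitals mark the letters AGGAAG or CGGAAG, which contain the core bound by ETS factors, and AGATAA or TGATAA, letters bound by GATA factors, on either strand. No match overlapped another.
Itga2b upstream region, chr11:102469884-102470133, minus strand: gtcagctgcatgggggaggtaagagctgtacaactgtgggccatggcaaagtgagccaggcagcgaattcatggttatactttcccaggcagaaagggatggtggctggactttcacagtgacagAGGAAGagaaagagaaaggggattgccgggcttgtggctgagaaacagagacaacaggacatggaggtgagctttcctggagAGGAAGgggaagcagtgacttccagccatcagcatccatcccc
Pf4 upstream region, chr5:90772185-90772434, plus strand: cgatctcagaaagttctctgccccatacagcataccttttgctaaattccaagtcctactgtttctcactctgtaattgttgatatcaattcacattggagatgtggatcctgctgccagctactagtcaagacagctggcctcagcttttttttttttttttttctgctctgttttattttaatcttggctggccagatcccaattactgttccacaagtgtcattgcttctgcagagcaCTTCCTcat
Gp5 upstream region, chr16:30310782-30311031, minus strand: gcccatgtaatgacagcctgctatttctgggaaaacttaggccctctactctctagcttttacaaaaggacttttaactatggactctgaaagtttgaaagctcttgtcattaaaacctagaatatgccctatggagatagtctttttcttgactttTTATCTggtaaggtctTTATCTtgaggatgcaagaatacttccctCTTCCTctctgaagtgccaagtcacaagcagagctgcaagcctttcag
AGGAAG occurred 2 times in the *Itga2b* region and 1 time each in those of *Pf4* and *Gp5*, and AGATAA occurred 2 times in that of *Gp5*. Of 32851 regions of the same length in the table, 29.5% hold AGGAAG, 13.6% CGGAAG, 9.99% AGATAA and 7.94% TGATAA. All 6 regions of the priming genes held AGGAAG or CGGAAG, as did 39.2% of all regions, and *Gp5* was the only one of the 6 with AGATAA. The region of *Gp9* (chr6:87777820-87778069) lies inside the RefSeq span of that gene. For *Gp5* the bases just after the start site were not found in its GENCODE M21 transcripts. The matches describe letters and not sites of binding.

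*Vwf* encodes von Willebrand factor, the large protein that tethers platelets to injured vessel walls and a widely used marker of platelet-biased HSCs. *Vwf* (chr6:125552948-125686679) had signals of 1919, 1928 and 1992 in *Ltbr*-/- and of 2250, 2238 and 2312 in Ly5.1 samples. The samples of each genotype lay close together and the groups did not overlap. Signals averaged 1946 ± 39.8 (SD, n = 3) against 2267 ± 39.7 (SD, n = 3), a log2 fold change of −0.22 ± 0.08 (SE, limma, adjusted p = 0.0555), which missed the threshold. The adjusted p from limma was 0.0157 after quantile normalization, 0.0258 among the upper 25% of genes by mean and 0.0390 without a variance trend, and it was 0.0443 with the replicate number as a block. It was between 0.0832 and 0.153 in the 6 fits that omitted a sample each, 0.0795 without a filter on low values, 0.0567 with samples centred on the median and 0.0549 on log2(signal + 1), so that the side of the threshold on which *Vwf* fell depended on the setting. In samples centred on ribosomal protein genes *Vwf* lay at −1.10 (adjusted p = 1.56e-19).

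*Vwf* starts 239 kb from the end of *Ltbr*, the deleted gene, on the same chromosome. Of the 9 genes that RefSeq places between them, 4 were named in the files. *Scnn1a*, a sodium channel subunit, lay at 0.07 on the log2 scale (limma, adjusted p = 0.437), the tumour necrosis factor receptor gene *Tnfrsf1a* at −0.18 (adjusted p = 0.204), and *Plekhg6* at −0.01 (adjusted p = 0.943). *Cd9*, a tetraspanin abundant on platelets, had signals of 841, 987 and 927 in *Ltbr*-/- and of 995, 1099 and 1175 in Ly5.1 samples, with a log2 fold change of −0.25 ± 0.09 (SE, limma, adjusted p = 0.0646), which passed the threshold after quantile normalization, at −0.28 (adjusted p = 0.0344). The signals of *Cd9* and *Vwf* were thus lower by a similar amount, with no overlap between the groups. The part of the nearby deletion in the values of *Vwf* was not tested.

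*Selp* encodes P-selectin, an adhesion receptor stored in alpha granules beside von Willebrand factor. *Selp* (chr1:164115264-164150026) had signals of 981, 909 and 949 in *Ltbr*-/- and of 774, 799 and 844 in Ly5.1 samples, and the groups did not overlap. Signals averaged 946 ± 36.4 (SD, n = 3) against 806 ± 35.6 (SD, n = 3), a log2 fold change of 0.23 ± 0.09 (SE, limma, adjusted p = 0.0713), short of the threshold. It passed without a variance trend (limma, adjusted p = 0.0432) and, in the opposite direction, in samples centred on ribosomal protein genes, at −0.65 (adjusted p = 1.08e-06). An antisense transcript and a noncoding gene overlap *Selp* on the other strand in GENCODE M21, and whether the counting used the strand is not given in the sources used here. The signal of *Selp* divided by that of *Vwf* was 0.511, 0.471 and 0.477 in *Ltbr*-/- and 0.344, 0.357 and 0.365 in Ly5.1 samples. As *Selp* lay higher and *Vwf* lower without overlap, this ratio had to separate the genotypes and adds no test.

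*Gp1bb*, *Gp9* and *Gp5* encode subunits of the GPIb-IX-V complex, the platelet receptor for von Willebrand factor, and none of them passed the test. *Gp9* (chr6:87776131-87779786) had signals of 255, 260.3 and 235 in *Ltbr*-/- and of 259, 241 and 262 in Ly5.1 samples. The groups overlapped over most of their range, and the 95% interval of the fold ran from 0.864 to 1.12 (limma, adjusted p = 0.907). *Gp5* (chr16:30307685-30310781) had signals of 299, 313 and 259 in *Ltbr*-/- and of 336, 302 and 338 in Ly5.1 samples. These groups overlapped in part, with a log2 fold change of −0.17 and a 95% interval of the fold from 0.778 to 1.02 (limma, adjusted p = 0.270).

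*Gp1bb* (chr16:18620319-18622403) had the lowest level of the 9 genes, between 15.2 and 15.9 in *Ltbr*-/- and between 15.7 and 16.6 in Ly5.1 samples, again with overlap (limma, adjusted p = 0.276). The regularized log draws such low values together, and the 95% interval of its fold, from 0.914 to 1.01, takes no account of this. *Gp1bb* also lies inside annotated transcripts of *Sept5* on the same strand, and reads of the 2 genes may not be separable. The remaining subunit, *Gp1ba*, which was added to the comparison after its values were seen, had a mean signal of 305 ± 13.4 (SD, n = 3) in the knockout and of 269.6 ± 18.2 (SD, n = 3) in Ly5.1 cells (limma, adjusted p = 0.213).

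*Clu* encodes clusterin, a secreted chaperone that is also found in platelet granules. It showed the largest difference of the 9 genes. *Clu* (chr14:65968483-65981548) had signals of 1311, 1502 and 1531 in *Ltbr*-/- and of 793, 773 and 813 in Ly5.1 samples, so that the lowest *Ltbr*-/- value lay well above the highest Ly5.1 value. Signals averaged 1448 ± 119 (SD, n = 3) against 793 ± 19.9 (SD, n = 3), a fold of 1.82 with a 95% interval from 1.61 to 2.06, and a log2 fold change of 0.87 ± 0.09 (SE, limma, adjusted p = 7.53e-10). The log2 fold change ranged from 0.82 to 0.94 over the fits that omitted 1 sample each and was 0.83 after quantile normalization, but was −0.02 in samples centred on ribosomal protein genes. The signal of *Clu* divided by that of *Vwf* was 0.683, 0.779 and 0.769 in *Ltbr*-/- and 0.352, 0.345 and 0.352 in Ly5.1 samples. With *Clu* higher and *Vwf* lower without overlap, this ratio also had to separate the genotypes.

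**Figure D3:**
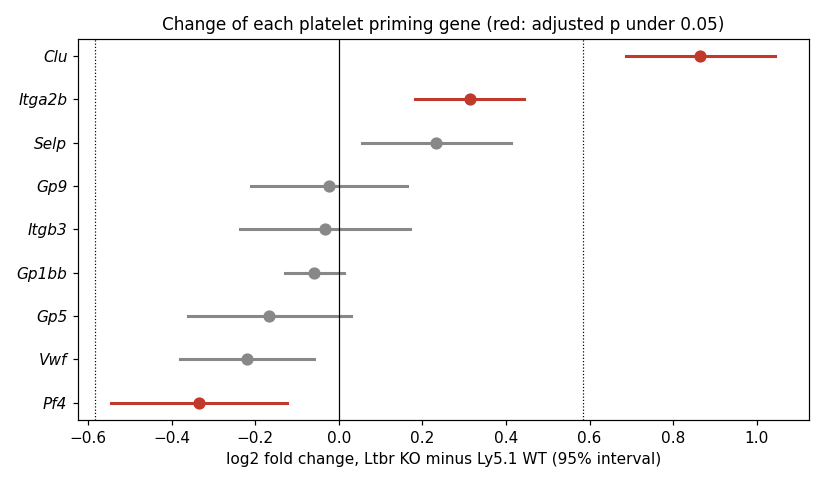
Log2 fold change of each platelet priming gene, *Ltbr*-/- minus Ly5.1, with its unadjusted 95% interval from limma; red marks an adjusted p under 0.05, dotted lines a fold of 1.5 in either direction. *Clu* at 0.87 lies past the dotted line, and *Itga2b* at 0.31 and *Pf4* at −0.33 lie on opposite sides of 0; in samples centred on ribosomal protein genes *Clu*, *Itga2b* and *Selp* lie below 0.

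Beyond these 9 genes, 93 other genes of the megakaryocyte and platelet lineage were grouped by role, of which 77 passed the filter. With an adjusted p under 0.05 from limma, 8 rose and 7 fell, beside 14.8% of all tested genes, and 1 gene, *Cish*, was called with a fold of at least 1.5. Their median log2 fold change was −0.05. After quantile normalization 5 rose and 19 fell, and after centring on ribosomal protein genes 0 rose and 76 fell (limma), so that the balance of directions depended on the scaling. The calls over all tested genes shifted as well. With the fold threshold added, quantile normalization called 261 of the 13108 higher and 28 lower, against 356 and 8 in the first fit. The centring called 0 higher and 12037 lower. At that rule 1 other lineage gene was higher and 1 lower after quantile normalization, and 0 were higher and 71 lower after the centring. The share of all tested genes past the adjusted p alone after quantile normalization is not given here. The 5 and 19 therefore have no background beside them and are not read as particular to the lineage.

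Among 22 platelet receptor genes, 17 were tested and 1 passed. *F2rl2*, the thrombin receptor PAR3, had signals of 388, 366 and 395 in *Ltbr*-/- and of 291, 256 and 297 in Ly5.1 samples, a log2 fold change of 0.45 ± 0.09 (SE, limma, adjusted p = 0.000647). Among 20 genes for alpha-granule cargo, 12 were tested, 3 rose and 1 fell. *F13a1*, the A subunit of coagulation factor XIII, had signals of 2132, 2317 and 2263 in *Ltbr*-/- and of 1518, 1623 and 1569 in Ly5.1 samples, a fold of 1.42 (log2 fold change 0.51, adjusted p = 8.77e-06 from limma). Neither gene overlapped between the genotypes, and both still rose past the adjusted p after quantile normalization, at 0.44 for *F2rl2* and 0.47 for *F13a1*. *Srgn*, the granule proteoglycan serglycin, and the cytokine gene *Tgfb1* rose by 0.37 and 0.36 on the log2 scale (limma, adjusted p = 0.000202 and 0.000827), and after quantile normalization lay at 0.11 (adjusted p = 0.243) and 0.23 (adjusted p = 0.0309). *Fn1*, fibronectin, fell by 0.24 (adjusted p = 0.0419).

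Of 20 genes for platelet formation and integrin activation, 17 were tested. *Plek*, the platelet protein pleckstrin, rose with a log2 fold change of 0.40 (limma, adjusted p = 0.00133), and *Flna*, the actin crosslinker filamin A, fell by 0.22 (adjusted p = 0.0103). The other 15 genes did not pass the test. Of those whose products switch on integrin αIIbβ3, named after their values were seen, talin 1 (*Tln1*) and kindlin-3 (*Fermt3*) had log2 fold changes of −0.15 (limma, adjusted p = 0.101) and 0.02 (adjusted p = 0.925), and both fell after quantile normalization, by 0.56 (adjusted p = 1.09e-08) and 0.24 (adjusted p = 0.0131). *Flna* then fell by 0.59 (adjusted p = 1.07e-09).

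All 20 megakaryocyte transcription factor genes were tested, and 2 rose and 4 fell. *Gata2* and *Runx1*, which act in HSCs and early megakaryocytes, rose with log2 fold changes of 0.22 (adjusted p = 0.0402) and 0.27 (limma, adjusted p = 0.0341); after quantile normalization both missed the threshold (adjusted p = 0.456 and 0.0587). *Mef2c*, *Etv6* and *Meis1* fell by 0.37, 0.34 and 0.23 on the log2 scale, with adjusted p-values from limma of 0.00337, 0.00279 and 0.0380, and these passed after quantile normalization too. *Gata1*, the main regulator of megakaryocyte maturation, named here after its values were seen, had a mean signal of 1134 ± 32.0 (SD, n = 3) in the knockout and of 991 ± 61.4 (SD, n = 3) in Ly5.1 cells (limma, adjusted p = 0.135).

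In the list for thrombopoietin, the cytokine that drives both HSC maintenance and megakaryocyte growth, 11 genes were tested, 1 rose and 1 fell. *Cish*, a feedback inhibitor induced by STAT5, had signals of 860.3, 903 and 994 in *Ltbr*-/- and of 606, 522 and 656 in Ly5.1 samples, without overlap. Its fold was 1.55 (log2 fold change 0.63 ± 0.10 SE, limma, adjusted p = 3.34e-06). It lay just past the fold threshold and was not called without *Ltbr*-/- replicate 3 or without Ly5.1 replicate 2. *Stat3*, which encodes a transcription factor activated by cytokine receptors, fell by 0.25 (limma, adjusted p = 0.0444).

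**Figure D4:**
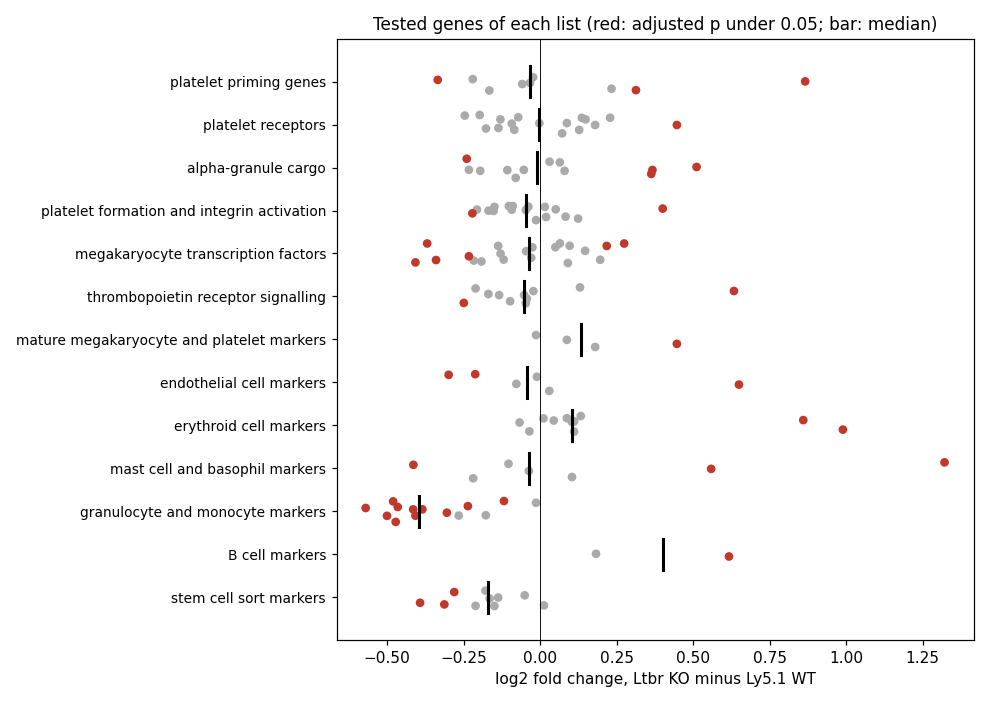
Log2 fold change, *Ltbr*-/- minus Ly5.1, of the tested genes of each list, with a point per gene (red for an adjusted p under 0.05 from limma) and a bar at the median; the vertical spread of points carries no value. The platelet priming genes have their median at −0.03 and the 5 lists of the lineage by role theirs between −0.053 and −0.0029, with points on both sides of 0. The mature megakaryocyte and platelet markers, with 4 tested, have theirs at 0.13, and the granulocyte and monocyte markers theirs at −0.40. In samples centred on ribosomal protein genes the median of all tested genes is at −0.89.

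Of 10 defining markers of mature megakaryocytes and platelets, 6 were near the bottom of the scale, with a mean signal under 20, and were not tested. Among them were *Ppbp* between 9.86 and 10.4, *Tubb1* between 7.44 and 7.73, *Clec1b* between 4.38 and 4.49, *Gp6* between 3.097 and 3.19 and, lowest of all 10, *G6b* between 0.584 and 0.589 over the 6 samples. The other 4, named here after their values were seen, were well above these. *F2rl2* lay between 256 and 395, *Gp1ba* between 249 and 321, *Rab27b* between 179 and 191 and *Treml1* between 143 and 173. The summed signal of the 10 markers was between 1022 and 1098 in *Ltbr*-/- and between 866 and 957 in Ly5.1 samples, carried mostly by these 4. As *Vwf* and *Selp* are also expressed in endothelium, 14 endothelial markers were examined, and 8 of them had a mean under 20, with *Cdh5* between 6.38 and 6.72 and *Sele* between 2.53 and 2.58. Their summed signal was between 9491 and 10030.3 in *Ltbr*-/- and between 9514 and 10139 in Ly5.1 samples, carried by genes such as *Tie1* and *Eng* that HSCs also express. *Tie1* and *Eng* fell by 0.21 and 0.30 on the log2 scale, and *Egfl7* rose by 0.65.

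Markers of other lineages also moved with the genotype, relative to the bulk of genes as above. The counts that rose or fell are at an adjusted p under 0.05 (limma), which 10.6% of all tested genes passed higher and 4.18% lower. Of 14 granulocyte and monocyte markers, 11 fell and all 14 had a log2 fold change below 0, and their summed signal was between 48832 and 49030 in *Ltbr*-/- and between 63756 and 68636 in Ly5.1 samples. Of 12 erythroid markers 11 were found and tested, and 2 rose, the alpha globin genes *Hba-a1* and *Hba-a2* with log2 fold changes of 0.99 and 0.86. The summed signal of mast cell and basophil markers was between 7803 and 8361 in *Ltbr*-/- and between 4336 and 4967 in Ly5.1 samples, led by *Cma1*, and 2 of the 7 tested rose and 1 fell. Of 8 B cell markers 2 were tested and *Cd79a* rose, with sums between 625 and 656 against 462 and 521. The 10 stem cell markers summed to between 13600 and 13994 in *Ltbr*-/- and to between 15581 and 16089 in Ly5.1 samples, and 3 of them fell, namely *Ly6a*, *Cd34* and *Flt3*. The part of these markers in the values of the priming genes was not tested.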

How the data were processed

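Per the labels and the study's methods, stranded mRNA libraries were made from total RNA of FACS-purified LT/ST-HSCs and sequenced as single reads on an Illumina NextSeq. The authors used SeqMan NGen for assembly and ArrayStar for quantification and deposited per gene and sample a signal, read from its values as 2 to the power of a regularized log (DESeq2 is named in the submitters' processing notes, with the builds GRCm38 and mm10). The annotation used is not given in the sources used here. The regularized log includes size factors and shrinks low values, so counts per gene are not known, and no counting interval can be given.

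The 26595 values per file were reduced to 26216 names, keeping the entry with the highest mean of a repeated symbol. The upper 50% by mean (13108 names) were fitted on log2 signal by limma 3.58.1 in R 4.3.3, with a variance trend in eBayes, and adjusted by Benjamini-Hochberg over all of them. A gene was called where its fold reached 1.5 and its adjusted p was under 0.05, as in the study. The fit was checked on simulated data. Positions come from RefSeq for GRCm38.p6, promoter sequences from the same build, transcript lengths and overlaps from GENCODE M21.

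The members and lists were chosen with earlier results of these data known. The text names all 9 members, *Ltbr*, each listed lineage gene with an adjusted p under 0.05 (except 1 that is not reported here), genes between *Ltbr* and *Vwf*, the genes most like *Vwf*, *Itga2b* and *Clu*, and cell type markers that were called or lay at or near the lowest values. The sort markers, cell type markers past the adjusted p without a call, and genes so marked in the text were named after their values were seen. P-values measure the spread between 3 pools of cells per genotype. Alternatives were a replicate block, other filters, scalings and variance models, log2(signal + 1), and leaving out each sample. The labels do not say that a replicate number marks a shared batch or animal.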

Additional observations from a re-analysis of the deposited data

How the results depend on the processing

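*Clu* was called under every alternative run except centring on ribosomal protein genes. That scaling moves the median of all tested genes to −0.89 and calls 12037 of the 13108, all lower. It gave 7 of the 9 priming genes called and 8 past the adjusted p, all lower, with *Itga2b* at −0.57, *Selp* at −0.65 and *Clu* at −0.015, and 71 of 77 other lineage genes called, with 76 past the adjusted p. Relative to the median of all tested genes in that fit, *Itga2b* was at 0.32, *Selp* at 0.24 and *Clu* at 0.88. Quantile normalization gave 2 other lineage genes called (*Flna* and *Cish*) and 24 past the adjusted p, 12 of them among the 15 of the reported fit with the same direction. Leaving out each sample in turn gave 1 priming gene called each time, from 2 to 3 past the adjusted p, from 0 to 1 other lineage genes called and from 10 to 15 past the adjusted p. It gave 0 called without *Ltbr*-/- replicate 3 or without Ly5.1 replicate 2, each with 11 past the adjusted p (limma). In these fits *Itgb3* lay between −0.11 and 0.089 and *Gp9* between −0.060 and 0.022, so their direction is not set, with *Itgb3* positive without *Ltbr*-/- replicate 2 (0.0028) or Ly5.1 replicate 1 (0.089) and *Gp9* positive without *Ltbr*-/- replicate 3 (0.022). The cause of these changes was not tested. With the replicate number as a block, 1 priming gene was called and 4 were past the adjusted p, *Vwf* being the addition, and 1 and 15 other lineage genes. The deviations of same-numbered samples from their group means correlated between −0.0052 and 0.0899 over tested genes, and 1 of 3 *Ltbr*-/- samples correlated best with its own number, so the numbers were not taken as pairs. Without a filter on low values, 10 other lineage genes were past the adjusted p, and among the upper 25% by mean 18 were.

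The files give no read counts, so the number of reads behind *Gp1bb* and other low genes is unknown, and no limit of detection can be stated. Shrinkage of low values understates their folds. With 3 samples per genotype, no single-gene permutation p can fall below 0.1.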

Other observations

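The tested genes whose log2 signal followed that of a priming gene most closely over the 6 samples were listed by Pearson's r, as a description without a test. For *Vwf* they were *Igha*, an immunoglobulin heavy chain gene, with r = 0.999 and a log2 fold change of −0.91, *Itga6*, the integrin α6 chain gene, with r = 0.991 and −0.25, and *Crtc3* with r = 0.991 and −0.23. For *Itga2b* they were *Mrpl52*, a mitochondrial ribosomal protein gene, with r = 0.999 and a log2 fold change of 0.37, *Lgals3*, galectin-3, with r = 0.998 and 0.65, and *S100a1* with r = 0.998 and 0.66. For *Clu* they were *Ndufv1*, a subunit gene of respiratory complex I, with r = 0.9997 and a log2 fold change of 0.46, *Gm6834* with r = 0.999 and 0.85, and *Capg*, an actin-capping protein gene, with r = 0.998 and 0.68. These 6 points fall into the 2 genotypes, so r mostly reflects that difference.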
